A study of Mus musculus with 12 samples.

Results

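Tumours treated with SN-38 alone were set against tumours treated with an anti-PD1 antibody alone, over all genes. The 3 SN-38 tumours and 3 anti-PD1 tumours were taken by their treatment labels, 6 of the 12 tumours of the series. In each, Sq-1979 mouse head and neck squamous carcinoma cells, mixed with Matrigel, had been injected under the skin of the back of male C3H/HeN mice 6 weeks old. The other 6 tumours came from mice given vehicle (3 tumours) or anti-PD1 + SN-38 (3 tumours), and serve here as background levels. All 4 groups share the cell line, strain, sex and age, and poly(A) RNA of the whole tumour piece was sequenced. Doses, schedules and sampling times are not given in the sources used here, and the labels do not say that each tumour came from a different mouse, so the p-values measure the spread between these tumours.

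SN-38 is the active metabolite of irinotecan and traps topoisomerase I on DNA. The anti-PD1 antibody, raised in rat, blocks the inhibitory receptor PD-1 on T cells. T cells and natural killer (NK) cells secrete interferon-gamma, which acts on promoter sites called GAS, whereas type I interferons act on sites called ISRE. In the circadian clock, Clock and Arntl (Bmal1) switch on the Per, Cry and Nr1d genes and the output factors Dbp and Tef through E-box sites, and the Per and Cry proteins repress them in turn.

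Interferon-induced genes had lower means in the SN-38 tumours, and repressor and output genes of the clock had higher means. No single gene passed the adjusted threshold of 0.05 in edgeR. Members of 2 interferon lists, with 34 and 26 genes, were lower in 60 of 60, by a median of 0.59 and 1.05 on the log2 scale. 12 of 13 E-box clock genes were higher, by a list median of 0.52. The lists were chosen with earlier results of these data known, so these counts are descriptions and not tests. Gene lists for cell division, DNA repair and p53 targets had medians between -0.02 and 0.05. These medians turned on which SN-38 tumours were included.

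The total count of the 6 tumours ran from 23387238 to 28228937. Basal squamous keratins and Trp63, which define the injected cell type, were abundant in each of them: Krt5 lay between 5305 and 7195 CPM, counts scaled to library size and Trp63 between 453 and 538 CPM. The tumours also differed in content within a group. SN-38 tumour 2 had a summed fibroblast and matrix signal of 88082 CPM, against 10322 to 45478 CPM in the other 5. SN-38 tumour 1 had a summed neutrophil list signal of 580 CPM, against 79.95 to 144 CPM in the others. Anti-PD1 tumour 3 had the highest T cell, macrophage and dendritic cell list means of the 6 and anti-PD1 tumour 2 the lowest T cell list mean of the 3 anti-PD1 tumours. List medians that turn on these tumours are given also without them.

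Interferon and the clock are known to act through sites in promoters. So that such sites can be seen, promoters of 7 genes of the interferon and E-box clock lists are shown. They are the 250 bases before the RefSeq start (GRCm38.p6), written 5′ to 3′ on the gene's strand, with the first listed start where RefSeq has several. They were picked after the values were seen, for holding a match. In the first 3, from type I interferon-induced genes, capitals mark ISRE-like letters (GAAANNGAAA on either strand).
Oas3 (chr5:120777660-120777909, minus strand): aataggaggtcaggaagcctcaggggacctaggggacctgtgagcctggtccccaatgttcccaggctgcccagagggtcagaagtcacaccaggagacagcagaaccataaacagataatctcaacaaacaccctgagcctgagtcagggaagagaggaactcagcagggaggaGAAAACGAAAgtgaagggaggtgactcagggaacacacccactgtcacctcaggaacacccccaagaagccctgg
Ifit1 (chr19:34640639-34640888, plus strand): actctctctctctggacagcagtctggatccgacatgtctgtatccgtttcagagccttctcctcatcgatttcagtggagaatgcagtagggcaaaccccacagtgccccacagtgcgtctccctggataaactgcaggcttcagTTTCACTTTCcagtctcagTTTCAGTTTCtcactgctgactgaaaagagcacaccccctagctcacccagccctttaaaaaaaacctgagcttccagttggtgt
Isg15 (chr4:156200819-156201068, minus strand): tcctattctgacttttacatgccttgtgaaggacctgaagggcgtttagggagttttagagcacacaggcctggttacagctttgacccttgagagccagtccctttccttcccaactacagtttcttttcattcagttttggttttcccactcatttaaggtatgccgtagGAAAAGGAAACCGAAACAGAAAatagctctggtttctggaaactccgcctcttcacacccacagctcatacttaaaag

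In the promoters of 2 genes of the interferon-gamma list, capitals mark GAS letters (TTCNNNGAA on either strand). Igtp encodes an immunity-related GTPase and Irf1 a transcription factor that carries the response on to further genes. Values are given below for Igtp but not for Irf1.
Igtp (chr11:58199306-58199555, plus strand): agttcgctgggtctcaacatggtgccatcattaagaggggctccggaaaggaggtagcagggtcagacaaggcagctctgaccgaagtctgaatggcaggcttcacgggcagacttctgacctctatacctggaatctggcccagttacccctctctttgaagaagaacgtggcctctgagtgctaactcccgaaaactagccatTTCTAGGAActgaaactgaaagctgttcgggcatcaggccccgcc
Irf1 (chr11:53769764-53770013, plus strand): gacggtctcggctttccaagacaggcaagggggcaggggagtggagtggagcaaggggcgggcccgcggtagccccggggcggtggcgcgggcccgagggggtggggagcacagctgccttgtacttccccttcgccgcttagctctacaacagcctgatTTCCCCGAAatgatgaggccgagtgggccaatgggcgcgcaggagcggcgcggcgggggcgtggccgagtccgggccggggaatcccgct

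In the promoters of 2 clock genes, capitals mark the E-box CACGTG. Tef is an output transcription factor and Ciart a repressor of Clock and Arntl.
Tef (chr15:81802423-81802672, plus strand): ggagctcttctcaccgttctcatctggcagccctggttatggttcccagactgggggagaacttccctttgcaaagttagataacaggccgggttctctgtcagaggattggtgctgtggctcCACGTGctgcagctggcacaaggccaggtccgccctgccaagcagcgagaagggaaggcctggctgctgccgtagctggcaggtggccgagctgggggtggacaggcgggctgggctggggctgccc
Ciart (chr3:95882229-95882478, minus strand): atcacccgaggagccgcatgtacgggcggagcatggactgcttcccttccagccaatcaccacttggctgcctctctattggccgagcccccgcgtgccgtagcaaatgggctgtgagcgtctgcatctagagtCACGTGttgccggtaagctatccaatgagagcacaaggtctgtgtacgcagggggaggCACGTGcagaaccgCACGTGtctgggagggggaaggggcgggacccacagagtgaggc

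RefSeq promoters were found for 24 of 34 type I genes, and 10 of the 24 (41.7%) held ISRE-like letters in this window, against 3.46% of 27025 RefSeq genes. For the interferon-gamma list, 12 of 18 (66.7%) held ISRE-like letters and 9 of 18 (50%) GAS letters, against 8.13% of all RefSeq genes for GAS. The E-box was found in 5 of 11 clock promoters (45.5%), against 6.86% of all genes. ISRE-like and GAS letters can overlap, and overlaps were kept. A match describes letters and not binding.

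Over the whole transcriptome, 16833 genes were tested and edgeR's quasi-likelihood test with Benjamini-Hochberg adjustment called 0 (0% of genes), with a smallest adjusted p of 0.937. At an unadjusted p under 0.05 it held 779 genes (4.63%), of which 412 were higher with SN-38 (2.45%) and 367 lower (2.18%). limma voom also called 0. DESeq2 called 38 genes (0.226%), 27 lower with SN-38 (0.16%) and 11 higher (0.0653%). Of these 27 lower genes, 11 belong to the type I list (Ddx58, Ifi27l2a, Ifi44, Ifit1, Ifit3, Irf7, Irf9, Oas3, Oasl2, Rtp4 and Trim30a) and 10 to the interferon-gamma list (Gbp2, Gbp2b, Gbp3, Gbp7, Ifi47, Igtp, Iigp1, Irgm1, Irgm2 and Tgtp2). The higher genes included the clock output gene Tef and the splicing-related genes Srsf11, Srrm2, Hnrnph1 and Rbm39. The median difference of all genes tested was 0.01, 48% of genes had a lower mean with SN-38 and 52% a higher one.

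Genes induced by type I interferon had lower means with SN-38, from signal carriers to antiviral effectors. All 34 members were tested and all 34 had a lower mean with SN-38, with single differences from -1.16 to -0.25. In 25 of the 34 (73.5%) each SN-38 tumour lay below each anti-PD1 tumour, which held for 3.75% of all genes. In that direction 29 had an unadjusted p under 0.05, against 2.18% of all genes. The mean log2 CPM of the list was 6.59, 6.69 and 6.46 in SN-38 tumours 1 to 3 and 7.22, 6.82 and 7.51 in anti-PD1 tumours 1 to 3. It was 6.99 to 7.19 in vehicle tumours and 7.06 to 7.60 in combination tumours, so the SN-38 tumours were the lowest of all 12.

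Among the signal carriers, Irf9 is part of the factor that binds ISRE sites. Irf9 stood at 152, 133 and 124 CPM in SN-38 tumours and 180, 155 and 179 CPM in anti-PD1 tumours, a difference of -0.33 ± 0.09 (log2, SE). Irf7, the factor that amplifies interferon production, was at 271, 264 and 202 CPM against 520, 308 and 600 CPM. In both genes the groups did not overlap, with anti-PD1 tumour 2 the closest to the SN-38 tumours.

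Oas3 makes the short oligoadenylates that activate RNase L (ENSMUSG00000032661.9, chr5:120753098-120777661, GRCm38). It was at 103, 108 and 90.3 CPM in SN-38 tumours and at 204, 129 and 203 CPM in anti-PD1 tumours. The difference was -0.83 ± 0.19 (edgeR adjusted p = 0.94), and vehicle tumours lay between the group means at 125 to 152 CPM. Ifit1, which binds foreign RNA caps (ENSMUSG00000034459.8, chr19:34640871-34650009), was at 282, 287 and 254 CPM against 521, 349 and 551 CPM. Its difference was -0.79 ± 0.19 (edgeR adjusted p = 0.94). Vehicle tumours, at 418 to 471 CPM, were above the SN-38 tumours also for this gene.

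Mx2, an antiviral dynamin-like GTPase (ENSMUSG00000023341.15, chr16:97535308-97560900; annotated as a polymorphic pseudogene), had the smallest p of the list. It was at 40.5, 47.1 and 35.3 CPM with SN-38 and 67.9, 51.8 and 71.5 CPM with anti-PD1, a difference of -0.64 ± 0.14 (edgeR adjusted p = 0.94). Isg15, the ubiquitin-like modifier, was at 60.4, 65.4 and 59.2 CPM against 94.8, 79.98 and 141 CPM. The 3 vehicle tumours (99.7 to 113 CPM) and the 3 combination tumours (94.4 to 141 CPM) were above each SN-38 tumour for Isg15. Members of the Ifit, Oas and Mx families are similar in sequence, and how shared reads were counted is not given in the sources used here, so single members are less certain than the family.

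**Figure D1:**
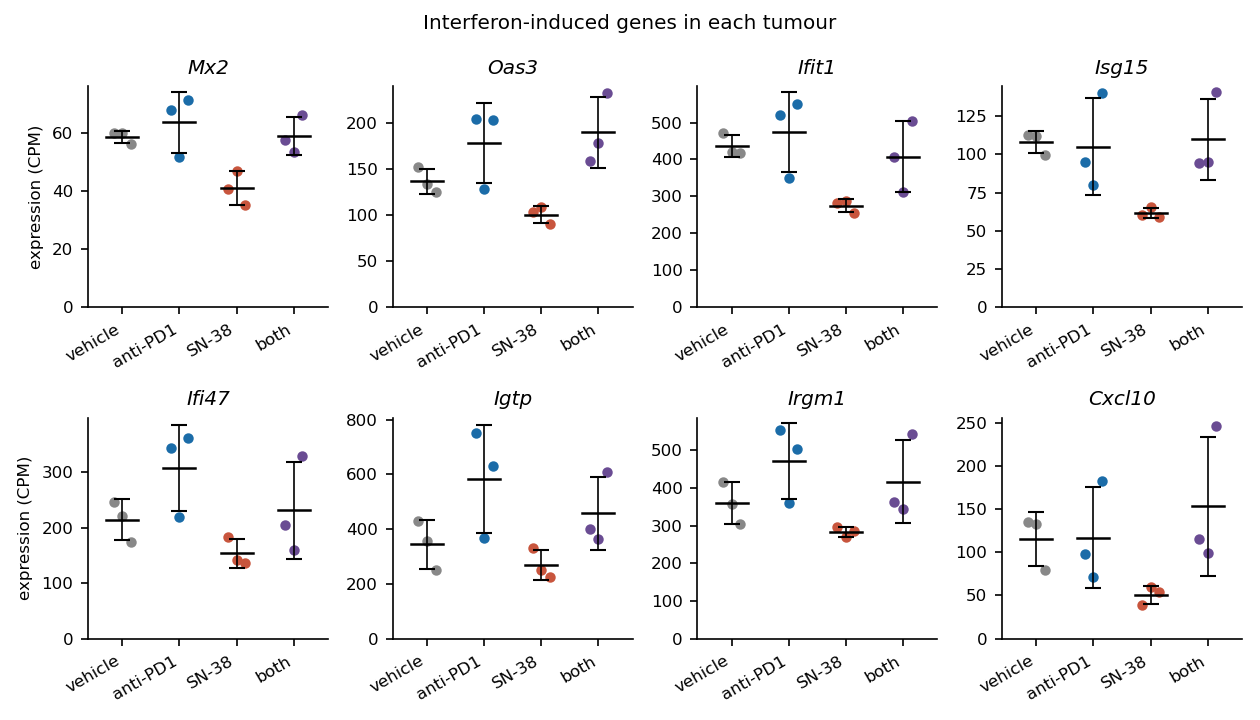
Expression of 8 interferon-induced genes in CPM (vertical axes) in each of the 12 tumours, by treatment; points are tumours, horizontal lines group means and bars 1 SD (n = 3). In each panel the 3 SN-38 points lie below the 3 anti-PD1 points, for example 90.3 to 108 against 129 to 204 CPM for Oas3.

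The interferon-gamma list differed by more per gene. All 26 members were tested and all 26 were lower with SN-38, from -2.24 for Ido1 to -0.30 for Nlrc5. In 17 of the 26 (65.4%) the groups did not overlap, against 3.75% of all genes in that direction. An unadjusted p under 0.05 was seen for 22, against 2.18% of all genes in that direction. The list mean was 6.71, 6.41 and 6.19 log2 CPM with SN-38 and 7.74, 6.79 and 7.79 with anti-PD1. The highest SN-38 tumour and the lowest anti-PD1 tumour were thus 6.71 and 6.79, nearly level. Vehicle tumours ranged from 6.37 to 7.18 and overlapped the SN-38 tumours.

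The immunity-related GTPases, which attack the vacuoles of intracellular parasites, had the smallest edgeR p-values of this list, though not the largest differences. Igtp (ENSMUSG00000078853.8, chr11:58199556-58207591) was at 332, 252 and 226 CPM with SN-38 and 751, 366 and 631 CPM with anti-PD1, a difference of -1.11 ± 0.30 (edgeR adjusted p = 0.95). Irgm1 was at 296, 269 and 287 CPM against 553, 359 and 503 CPM. Ifi47 was at 184, 142 and 136 CPM against 345, 219 and 362 CPM. Both differed without overlap, by -0.73 ± 0.20 and -1.0 ± 0.27. Gbp2, a guanylate-binding protein, was at 499, 373 and 321 CPM against 1186, 540 and 960 CPM. For its near copy Gbp2b, SN-38 tumour 1 (447 CPM) lay above anti-PD1 tumour 2 (434 CPM), and reads of the pair may be shared.

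Cxcl9, Cxcl10 and Cxcl11 draw T cells that carry Cxcr3. Cxcl9 was at 40.6, 50.7 and 37.4 CPM with SN-38 and 123, 60.4 and 207 CPM with anti-PD1, and 36.5 to 117 CPM with vehicle. Cxcl10 was at 39.5, 59.7 and 53.8 CPM against 97.6, 71.3 and 182 CPM, with 79.2 to 135 CPM in vehicle tumours. Differences were -1.60 ± 0.59 for Cxcl9, -1.20 ± 0.41 for Cxcl10 and -1.43 ± 0.47 for Cxcl11, each without overlap and each with anti-PD1 tumour 3 the highest. The source cytokine gene Ifng was near the detection limit: 0.663, 0.621 and 0.321 CPM with SN-38 and 0.934, 0.576 and 1.73 CPM with anti-PD1, which overlap.

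The differences of each agent from the shared vehicle tumours can be set side by side. For the type I list the median was -0.47 for SN-38 minus vehicle and 0.13 for anti-PD1 minus vehicle. For the interferon-gamma list the medians were -0.33 and 0.63. For Cxcl10 the values were -1.18 and 0.02, and for Igtp -0.35 and 0.76. Both columns share the 3 vehicle tumours, and for a single gene their difference is the contrast described here. For list medians this holds only roughly.

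**Figure D2:**
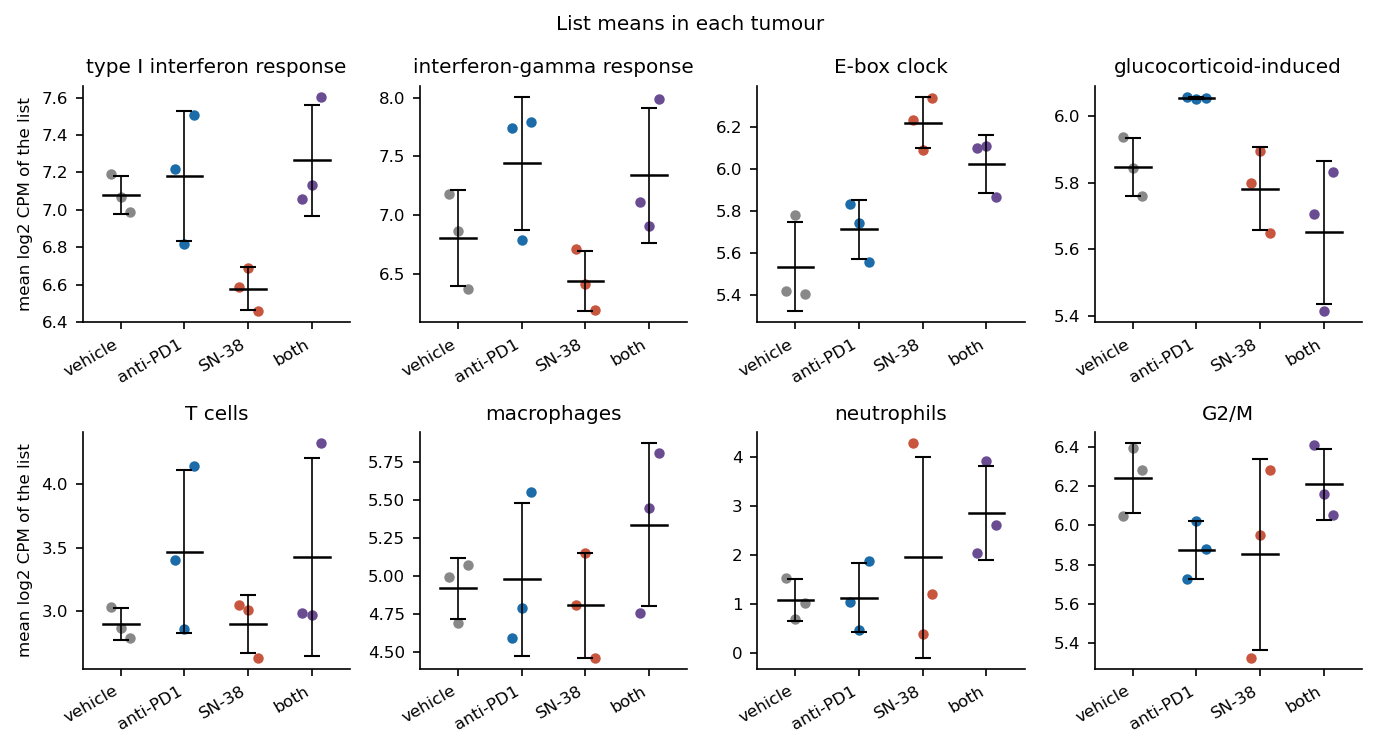
Mean log2 CPM of 8 gene lists (vertical axes) in each of the 12 tumours by treatment; points are tumours, lines means and bars 1 SD (n = 3). The SN-38 tumours are the lowest of the 12 for the type I list (6.46 to 6.69) and the highest or among the highest for the E-box clock list (6.09 to 6.34), whereas T cell and neutrophil lists are spread by single tumours.

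Sensors of foreign nucleic acid induce type I interferon and several are themselves interferon-induced. Of 16 sensing genes tested, 14 were lower with SN-38, with a median of -0.38. At an unadjusted p under 0.05, 7 were lower and 1 higher, against 2.18% and 2.45% of all genes. Without overlap, 31.2% were lower and 12.5% higher, against 3.75% and 4.3% of all genes. The 5 lower without overlap were Ifi204, Zbp1, Ddx58, Ifih1 and Dhx58, and 4 of these are also in the type I list. Ifih1 (MDA5) was at 76.7, 86.8 and 79.1 CPM with SN-38 and 114, 89.3 and 117 CPM with anti-PD1. Ddx58 (RIG-I) was at 181, 189 and 190 CPM against 235, 210 and 250 CPM. The DNA sensor gene Cgas differed by -0.07 ± 0.15 and its adaptor Tmem173 (STING) by -0.35 ± 0.22, both with overlap. Irf3, the factor downstream of them, was slightly higher in each SN-38 tumour (59.0 to 65.0 against 55.1 to 56.4 CPM), as was Aim2, a DNA sensor of the inflammasome (43.0 to 48.8 against 35.5 to 41.9 CPM).

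Genes of antigen presentation also had lower means with SN-38. All 15 MHC class I presentation genes were lower, by a median of -0.32. Of these, 4 of 15 (26.7%) were free of overlap, against 3.75% of all genes in that direction. An unadjusted p under 0.05 was seen for 4, against 2.18% of all genes in that direction. The immunoproteasome subunit gene Psmb10 was at 145, 131 and 115 CPM with SN-38 and 196, 163 and 272 CPM with anti-PD1. The proteasome activator gene Psme2 was at 168, 147 and 154 CPM against 206, 168 and 242 CPM. The heavy chain gene H2-K1 was at 3299, 2448 and 2686 CPM against 3095, 2714 and 3374 CPM, overlapping, with a difference of -0.12 ± 0.15. Outside this list, H2-Q2, a class I gene with close paralogs, was at 6.37, 4.61 and 3.37 CPM against 14.2, 11.7 and 9.82 CPM. It was named by a rule that asks for a small p and no overlap. All 10 class II genes were lower (median -0.56), led by their master regulator Ciita (107, 90.0 and 84.5 against 212, 85.7 and 214 CPM). Each of the 10 overlapped between the groups, and without anti-PD1 tumour 3 the median was -0.20, with 10 of 10 still lower.

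Markers of T cells, NK cells and their effectors had differences of the same sign with more spread. Of 25 T cell genes, 24 had a lower mean with SN-38, by a median of -0.71, but only Cd28 was free of overlap (4%, near the 3.75% of all genes in that direction). Of the 25, Cd28 and Cd8a had an unadjusted p under 0.05, which 2.18% of all genes had in that direction. Cd8a, the coreceptor of cytotoxic T cells, was at 18.5, 14.6 and 14.8 CPM with SN-38 and 24.8, 15.4 and 30.2 CPM with anti-PD1. Of 15 NK cell genes 14 were lower (median -0.80), 3 of them without overlap (20%). Of 11 cytotoxic genes 11 were lower (median -0.98), 2 without overlap (18.2%). In that direction 3.75% of all genes were free of overlap. The pore-former gene Prf1 was at 3.72, 2.49 and 2.17 CPM against 6.67, 3.91 and 8.52 CPM. Gzmb, a granule protease gene, was at 17.2, 14.1 and 5.99 CPM against 21.8, 12.5 and 42.9 CPM, and the NK receptor gene Ncr1 at 1.29, 1.83 and 0.522 CPM against 2.38, 1.497 and 6.47 CPM. Both overlapped. In whole-tumour RNA, fewer cells of a type and less RNA per cell cannot be told apart.

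Pdcd1, which encodes the antibody's target, was at 5.89, 5.30 and 5.54 CPM with SN-38 and at 13.6, 6.22 and 16.6 CPM with anti-PD1. Its difference was -1.12 ± 0.46 (edgeR adjusted p = 0.999), and the vehicle tumours (4.55 to 6.76 CPM) lay with the SN-38 tumours. The gene of its ligand PD-L1, Cd274, was at 102, 53.3 and 39.2 CPM against 226, 77.4 and 162 CPM, where SN-38 tumour 1 exceeded anti-PD1 tumour 2. The gene of the second ligand, Pdcd1lg2, was at 1.51, 0.768 and 0.442 CPM against 3.65, 1.15 and 8.85 CPM. Of 12 checkpoint and exhaustion genes 11 were lower (median -0.84). Pdcd1 and Tigit were free of overlap (16.7%, against 3.75% of all genes in that direction). Without anti-PD1 tumour 3, 8 of 12 were lower and the median was -0.38. 9 of 10 regulatory T cell genes were lower (median -0.73, or -0.29 without anti-PD1 tumour 3), none without overlap: their lineage factor gene Foxp3 was at 2.76, 4.24 and 2.09 CPM against 5.05, 2.99 and 10.3 CPM.

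Leaving out anti-PD1 tumour 3, which had the highest T cell signal, brought the T cell median from -0.71 to -0.29, the NK cell median from -0.80 to -0.19, the cytotoxic median from -0.98 to -0.43 and the macrophage median from -0.35 to 0.14. Leaving out anti-PD1 tumour 2 instead raised the number of T cell genes at an unadjusted p under 0.05 from 2 to 11. The interferon lists moved less. Without anti-PD1 tumour 3 the type I median was -0.45 with 33 of 34 genes lower, and the interferon-gamma median -0.91 with 26 of 26 lower. With both anti-PD1 tumour 3 and SN-38 tumour 1 left out, the medians were -0.48 (32 of 34 lower) and -1.06 (26 of 26), with 17 and 14 genes at an unadjusted p under 0.05. The summed T cell signal was 354 to 449 CPM in SN-38 tumours and 407 to 678 CPM in anti-PD1 tumours, and the summed macrophage signal 784 to 1280 CPM and 908 to 1923 CPM. The part of either in the interferon lists was not tested.

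**Figure D3:**
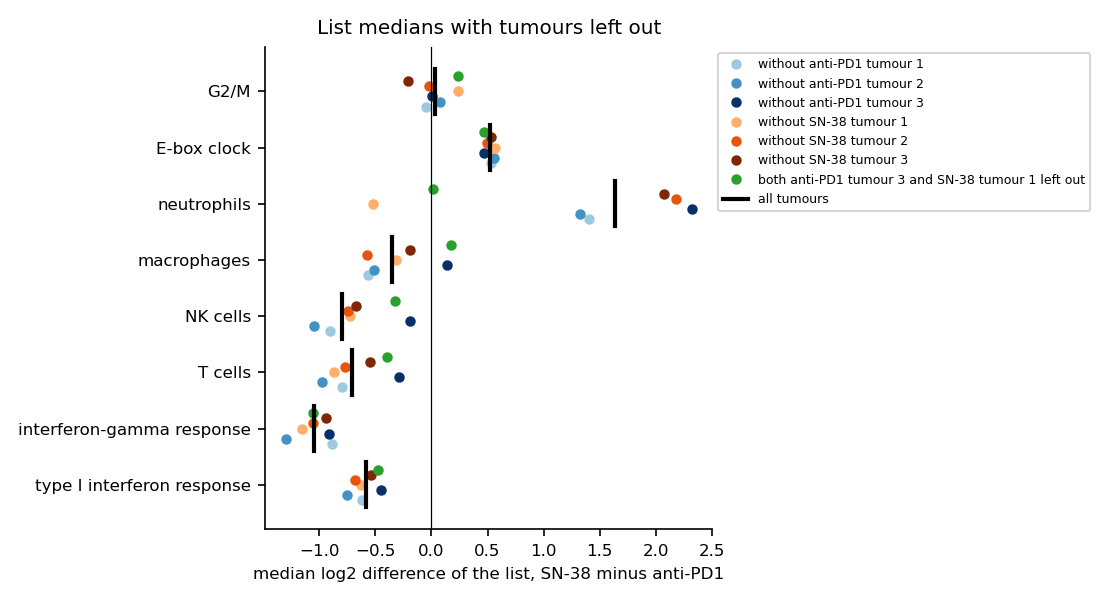
Median log2 difference, SN-38 minus anti-PD1 (horizontal axis), of 8 gene lists with 1 or 2 tumours left out (coloured points) and with all tumours (black bars). The interferon-gamma medians stay between -1.30 and -0.89 and the E-box clock medians between 0.47 and 0.56, whereas the neutrophil median goes from 1.64 to -0.52 without SN-38 tumour 1.

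Myeloid lists depended on single tumours. Of 18 macrophage genes 13 were lower with SN-38, 1 without overlap (5.56%, near the 3.75% of all genes in that direction). This was Fcgr1, an antibody receptor gene that interferon also induces, at 13.1, 15.3 and 12.2 CPM against 15.9, 17.0 and 30.7 CPM. 10 of 11 dendritic cell genes were lower (median -0.64), all overlapping. Without anti-PD1 tumour 3 the dendritic cell median was -0.07, and with SN-38 tumour 1 also left out it was 0.01, with 5 lower and 6 higher. Of 16 neutrophil genes 12 could be tested, and all 12 had a higher mean with SN-38, by a median of 1.64. S100a8, a gene of this list, was at 23.1, 0.146 and 0.804 CPM against 2.17, 0.230 and 1.22 CPM, so SN-38 tumour 1 alone was high. Without SN-38 tumour 1, 10 of the 12 were lower and the median was -0.52. Of the 4 that could not be tested, Ly6g and Camp had at most 6 reads in any of these 6 tumours, Retnlg had 54 in SN-38 tumour 1 and Ngp 44 in anti-PD1 tumour 1. Cxcl3, a chemokine that draws neutrophils, was at 22.8, 1.32 and 2.29 CPM against 0.0849, 0.768 and 1.26 CPM. Its groups did not overlap, although the lowest SN-38 value was close to the highest anti-PD1 value. Ccl2, which draws monocytes, was lower in each SN-38 tumour (7.29, 8.45 and 4.74 against 8.87, 11.1 and 28.5 CPM). B cell genes were sparse: 7 of 12 could be tested and 5 had at most 8 reads in each of the 6 tumours. All 7 had a lower mean with SN-38 (median -1.09), 1 of them without overlap (14.3%, against 3.75% of all genes in that direction). None had an unadjusted p under 0.05. Without anti-PD1 tumour 3 the median was -0.23, with 5 of 7 lower. With SN-38 tumour 1 also left out it was -0.03, with 4 lower and 3 higher.

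The clock genes had the opposite sign. 12 of 13 E-box clock genes had a higher mean with SN-38, by a median of 0.52. 7 of 13 (53.8%) were free of overlap, against 4.3% of all genes in that direction. An unadjusted p under 0.05 was seen for 8, against 2.45% of all genes in that direction. The list mean was 6.23, 6.09 and 6.34 log2 CPM in SN-38 tumours, 5.84, 5.74 and 5.56 in anti-PD1 tumours, 5.41 to 5.78 in vehicle tumours and 5.87 to 6.11 in combination tumours. Both groups given SN-38 thus lay above both groups without it. With any 1 tumour left out, 12 of 13 genes were higher, with medians of 0.47 to 0.56; with both anti-PD1 tumour 3 and SN-38 tumour 1 left out, 10 of 13 were higher (median 0.47).

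Cry2 and Per2 encode repressors of Clock and Arntl. Cry2 (ENSMUSG00000068742.11, chr2:92403646-92434043) was at 33.7, 42.4 and 33.7 CPM with SN-38 and 23.6, 25.7 and 25.03 CPM with anti-PD1, a difference of 0.56 ± 0.13 (edgeR adjusted p = 0.94). Per2 (ENSMUSG00000055866.9, chr1:91415982-91459324) was at 33.3, 39.7 and 46.5 CPM against 23.1, 20.9 and 21.5 CPM, a difference of 0.87 ± 0.21 (edgeR adjusted p = 0.94). Vehicle tumours were lower still, at 19.6 to 21.4 CPM for Cry2 and 11.5 to 18.6 CPM for Per2. Per3 was at 36.1, 40.3 and 40.3 CPM against 29.3, 19.9 and 21.6 CPM.

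Dbp and Tef encode output factors that carry the rhythm to metabolic genes. Dbp (ENSMUSG00000059824.12, chr7:45705088-45710203) had the largest difference of the list, at 99.1, 81.9 and 156 CPM with SN-38 and 49.7, 52.4 and 42.4 CPM with anti-PD1, or 1.22 ± 0.29 (edgeR adjusted p = 0.94). Tef was at 350, 370 and 334 CPM against 250, 258 and 227 CPM. Nr1d2, a repressor of Arntl, was at 147, 138 and 167 CPM against 122, 119 and 107 CPM, and Ciart at 10.8, 8.99 and 13.8 CPM against 6.33, 7.25 and 5.68 CPM. For Nr1d1 the groups overlapped (401, 291 and 324 against 289, 322 and 229 CPM).

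Per1 was the exception, with a mean lower by -0.26 ± 0.19 (153, 227 and 143 against 239, 205 and 183 CPM). The list of glucocorticoid-induced genes was lower in 12 of 15 members, by a median of -0.21. Its list mean was 6.06, 6.05 and 6.05 log2 CPM in anti-PD1 tumours and 5.80, 5.90 and 5.65 in SN-38 tumours. Tsc22d3 (GILZ), an anti-inflammatory target of the receptor, was at 249, 348 and 229 CPM with SN-38 and 551, 459 and 410 CPM with anti-PD1, a difference of -0.78 ± 0.25. Klf9 was at 53.2, 42.6 and 45.8 CPM against 73.6, 77.2 and 54.2 CPM. These were the 2 members free of overlap (13.3%, against 3.75% of all genes in that direction), and the classical target Fkbp5 overlapped, with a difference of -0.22 ± 0.20. Of the genes that peak with Arntl, 4 of 5 were lower (median -0.08), none without overlap, and Arntl itself was at 29.5, 23.6 and 32.0 CPM against 34.8, 28.1 and 26.8 CPM. The sign of that list median turned on single tumours. The time of day of sampling is not given in the sources used here, so treatment and time of sampling cannot be told apart.

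**Figure D4:**
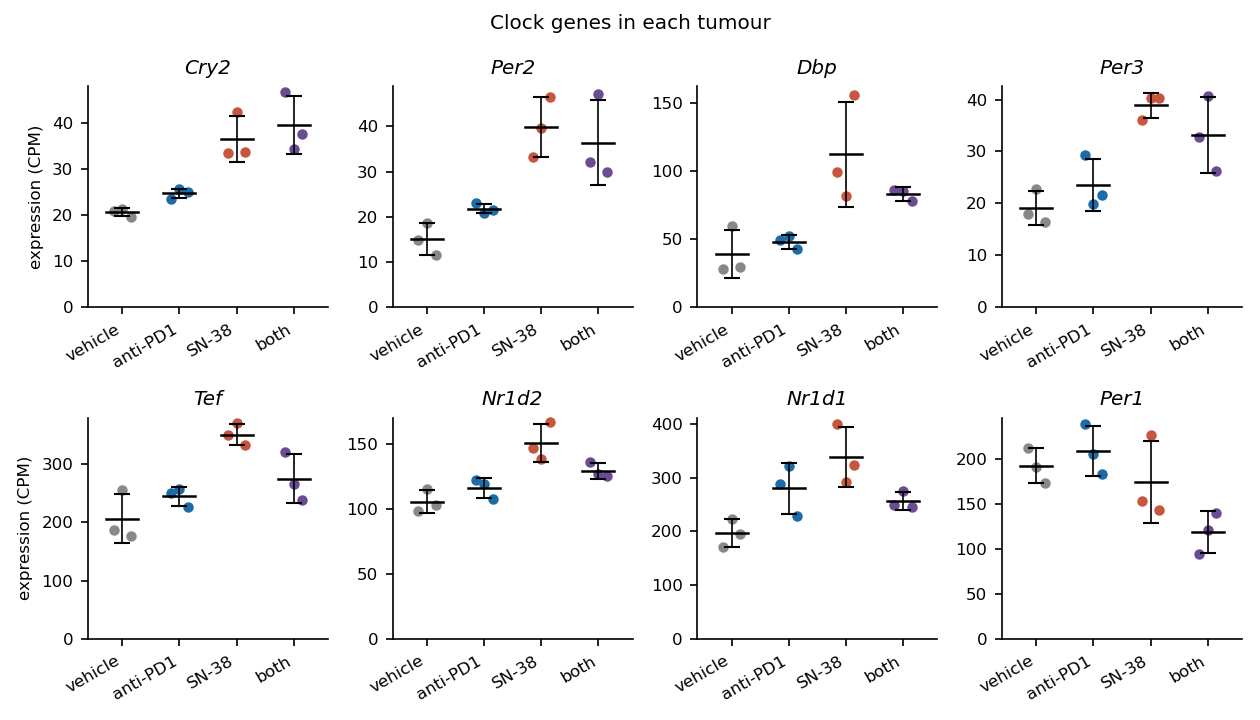
Expression of 8 clock genes in CPM (vertical axes) in each of the 12 tumours by treatment; points are tumours, lines means and bars 1 SD (n = 3). For Cry2, Per2, Dbp, Per3, Tef and Nr1d2 the 3 SN-38 points lie above the 3 anti-PD1 points; for Nr1d1 and Per1 they overlap.

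Several genes outside these lists had small p-values with no overlap. Cish, a feedback inhibitor of cytokine signalling through Stat5, was at 42.0, 46.4 and 22.6 CPM with SN-38 and 71.6, 77.6 and 101 CPM with anti-PD1 (-1.17 ± 0.25). Its anti-PD1 tumours were also above the 3 vehicle tumours (39.8 to 58.5 CPM) and the 3 combination tumours (39.7 to 51.9 CPM). Klf13, a zinc finger transcription factor gene, was at 210, 220 and 240 CPM against 358, 343 and 296 CPM (-0.57 ± 0.13). Gm4841, listed as protein-coding, had the smallest p of all genes (edgeR adjusted p = 0.94), at 8.84, 10.2 and 10.1 CPM against 18.5, 16.3 and 18.9 CPM. Tmem154 was at 35.7, 35.2 and 35.2 CPM against 43.1, 46.2 and 46.7 CPM.

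In the higher direction, Mnt, which encodes a repressor that competes with Myc for Max, was at 53.03, 56.2 and 53.7 CPM with SN-38 and 43.3, 45.7 and 43.1 CPM with anti-PD1 (0.30 ± 0.07). The groups were tight and separate, and vehicle tumours were lower (33.6 to 36.4 CPM). In the SN-38 against vehicle contrast of the same fit Mnt was the 1 gene past the edgeR threshold (0.00594% of genes), with a difference of 0.63 ± 0.07 and an adjusted p of 0.0339. Snhg17, a noncoding host gene of small nucleolar RNAs, was at 59.9, 60.0 and 57.7 CPM against 49.0, 40.6 and 44.2 CPM (0.41 ± 0.08). Tia1, an RNA-binding stress granule protein gene, was at 80.2, 84.9 and 81.2 CPM against 68.1, 52.9 and 57.2 CPM. Spaca6, named for a sperm protein, was at 27.7, 32.9 and 21.5 CPM against 17.6, 11.4 and 15.5 CPM. Crebzf and Ppox differed by 0.47 ± 0.09 and 0.39 ± 0.09, and AL805899.1 by 0.64 ± 0.14.

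Immediate early genes, which respond to growth factor signals within minutes, were lower in 13 of 19, by a median of -0.25, with 5 of 19 (26.3%) free of overlap and 4 at an unadjusted p under 0.05. In that direction 3.75% of all genes were free of overlap and 2.18% had such a p. Egr1 was at 46.3, 47.2 and 59.9 CPM with SN-38 and 93.2, 78.4 and 60.0 CPM with anti-PD1, so SN-38 tumour 3 and anti-PD1 tumour 3 were level. Jund was at 74.9, 81.8 and 77.3 CPM against 93.7, 107 and 97.8 CPM. Egr2, Myc and Klf6 were also free of overlap.

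Lists of genes tied to the action of SN-38 on DNA had medians near 0, with single members on both sides. Top1, its target, was at 87.6, 93.2 and 97.9 CPM with SN-38 and 89.5, 96.8 and 94.9 CPM with anti-PD1, a difference of -0.01 ± 0.07. Cdkn1a (p21), the p53 target that halts the cell cycle, was at 79.9, 40.3 and 92.5 CPM against 73.3, 68.6 and 66.3 CPM, or 0.03 ± 0.25. Of 20 p53 targets 16 had a higher mean, by a median of 0.05, and none was free of overlap. The p53 target median was 0.17 without SN-38 tumour 2 (18 of 20 higher) and -0.02 without SN-38 tumour 3 (9 of 20 higher). The p53 target Sesn1 had a lower mean (198, 290 and 169 against 333, 327 and 247 CPM, -0.46 ± 0.20), the 1 member of that list at an unadjusted p under 0.05. Of 28 DNA repair genes 12 were higher (median -0.02), and 1 of 28 was lower without overlap (3.57%, near the 3.75% of all genes), the helicase gene Wrn (68.6, 66.8 and 69.1 against 80.2, 72.0 and 71.9 CPM). The repair median was 0.14 without SN-38 tumour 1 and -0.19 without SN-38 tumour 3. The 18 genes of SN-38 targets and handling split 9 to 9, with differences from -0.61 for Abcb1a to 0.45 for Ces2e, all overlapping. In this list 1 gene, Slfn8 (-0.55 ± 0.22), had an unadjusted p under 0.05. The SE of 0.25 for Cdkn1a leaves room for differences in either direction.

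For G2/M genes 13 of 24 were higher, with a median of 0.03 and no gene free of overlap. The SN-38 tumours were spread widely for this list, at 5.32, 5.95 and 6.28 log2 CPM, on both sides of the anti-PD1 tumours at 5.73, 6.02 and 5.88. The proliferation marker Mki67 was at 189, 385 and 388 CPM against 323, 300 and 321 CPM. SN-38 tumour 1 was the low one for both G2/M and replication genes, whose list split 14 higher to 12 lower with a median of 0.01. Both splits turned on single tumours. Without SN-38 tumour 1, 24 of 24 G2/M genes (median 0.23) and 26 of 26 replication genes (0.19) were higher with SN-38. Without SN-38 tumour 3, 24 of 24 (-0.21) and 26 of 26 (-0.26) were lower.

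Most stromal and epithelial genes overlapped between the groups. Of 24 fibroblast and matrix genes 22 had a higher mean with SN-38, by a median of 0.24, all overlapping. The sign of this list turned on single tumours: without SN-38 tumour 2, 21 of 24 were lower (median -0.67), and without anti-PD1 tumour 1, 18 of 24 were lower (-0.14). Fn1, a matrix glycoprotein gene, was at 325, 964 and 395 CPM with SN-38 and 272, 427 and 453 CPM with anti-PD1, with SN-38 tumour 2 alone high. 13 of 14 basal squamous genes were higher by a median of 0.12, none without overlap. Of 15 differentiated squamous genes tested, 9 were higher and 6 lower with SN-38 (median 0.04). Without overlap, 2 were lower (13.3%) and 1 higher (6.67%), against 3.75% and 4.3% of all genes. The 1 member at an unadjusted p under 0.05 was higher. Without SN-38 tumour 3, 10 of 15 were lower (median -0.16). Krt10, a keratin of differentiated skin, was at 0.258, 0.439 and 11.8 CPM against 0.297, 0.652 and 0.611 CPM, high in SN-38 tumour 3 only. Sprr2a3, a cornified envelope gene with close paralogs, was at 29.1, 32.3 and 27.2 CPM against 47.1, 50.8 and 70.4 CPM. Skeletal muscle marker genes were lower in 15 of 17 (median -0.59), with 1 free of overlap, Des (5.88%, against 3.75% of all genes in that direction). The muscle median was -0.30 without SN-38 tumour 1 and -1.29 without SN-38 tumour 3. Adipocyte genes were lower in 7 of 7 (median -0.98), none without overlap, with medians from -1.85 (without SN-38 tumour 3) to -0.55 (without anti-PD1 tumour 2).

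The remaining lists had small medians. Inflammatory cytokine genes were higher in 12 of 20 and lower in 8 (median 0.04), with differences from -1.24 to 3.62. Without overlap, 1 was lower and 1 higher (5% each, against 3.75% and 4.3% of all genes). At an unadjusted p under 0.05, 2 were lower and 2 higher, against 2.18% and 2.45% of all genes. The cytokine median was -0.29 without SN-38 tumour 1 and 0.27 without anti-PD1 tumour 3. Unfolded protein genes were lower in 14 of 20 (median -0.03), NF-kB pathway genes in 12 of 15 (median -0.07), and Nrf2 antioxidant genes higher in 11 of 15 (median 0.10), none without overlap. Hypoxia and glycolysis genes were higher in 13 of 17 (median 0.13), a median that was -0.01 without SN-38 tumour 1 and 0.39 without SN-38 tumour 2. Of the 17, 1 was lower without overlap (5.88%, against 3.75% of all genes in that direction), an identifier of the glycolytic enzyme gene Aldoa. It was at a low level (0.847, 1.21 and 1.04 against 1.49, 1.42 and 1.44 CPM). Where a symbol had several identifiers, that with the smallest p was kept, so this value may not represent the gene. Vegfa was at 171, 52.3 and 141 CPM with SN-38 and 86.8, 68.3 and 58.1 CPM with anti-PD1, low in SN-38 tumour 2. Endothelial genes were higher in 11 of 17 (median 0.07) and mitochondrially encoded genes in 9 of 10 (median 0.25). Only the endothelial gene Tek was higher without overlap (5.88% of its list, near the 4.3% of all genes in that direction). Pik3r1 and Cblb, a kinase subunit gene and a ubiquitin ligase gene that restrains T cells, differed by -0.10 ± 0.12 and -0.16 ± 0.13.

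**Figure D5:**
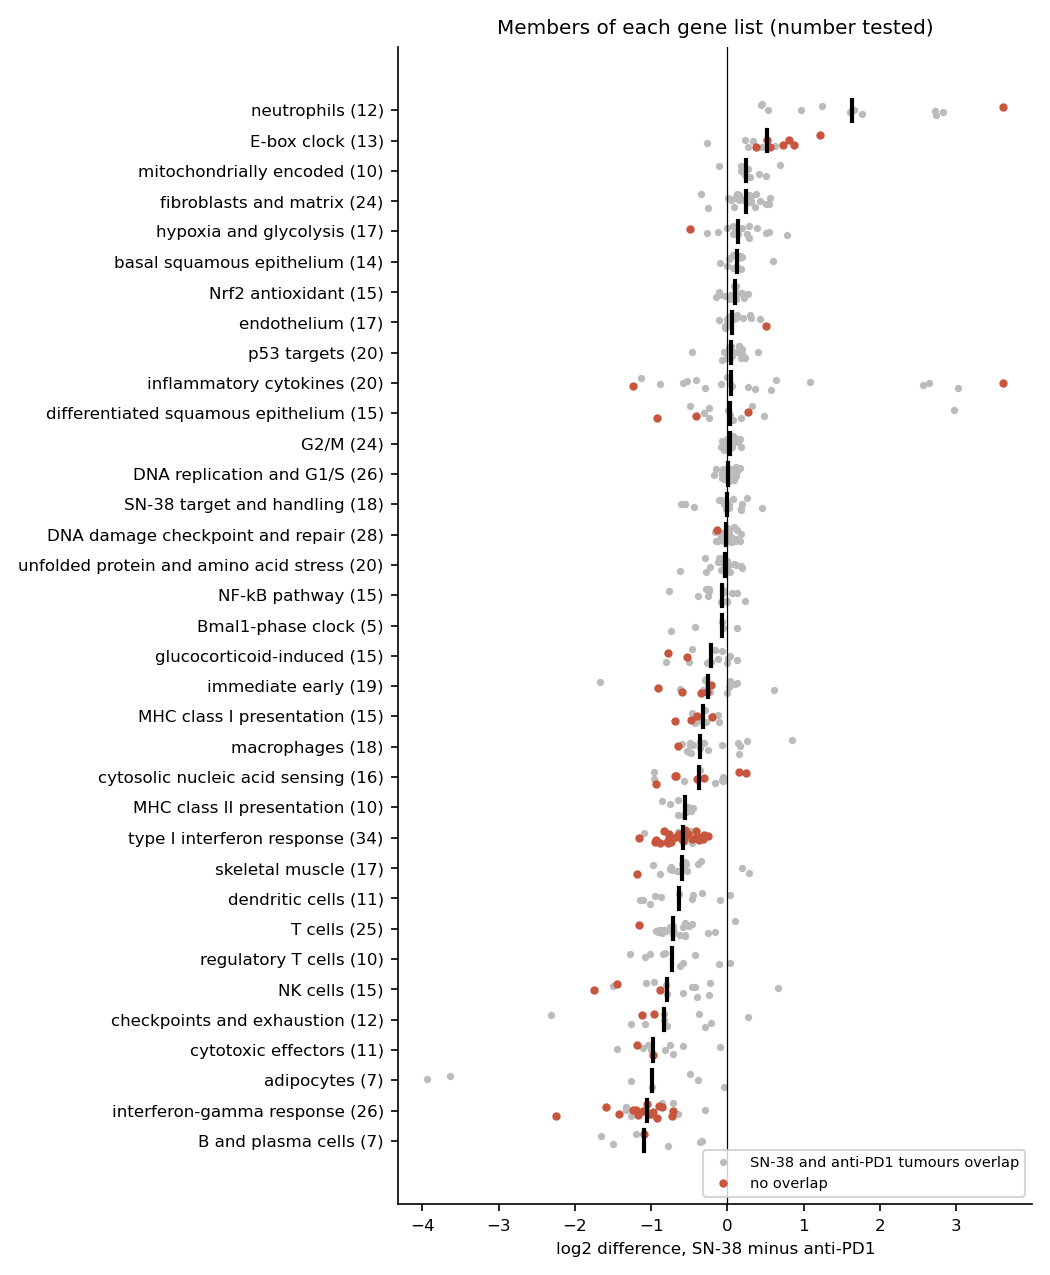
Log2 difference, SN-38 minus anti-PD1 (horizontal axis), of each tested member of 35 gene lists; black bars are list medians, red points members whose 3 SN-38 and 3 anti-PD1 tumours do not overlap, grey points members that overlap. Red points gather in the type I interferon (25 of 34), interferon-gamma (17 of 26) and E-box clock (7 of 13) lists.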

How the data were processed

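RNA of 12 subcutaneous Sq-1979 tumours was sequenced from stranded poly(A) libraries (per the labels). The authors trimmed reads with cutadapt 2.4 and aligned them with STAR 2.7.2a to GRCm38, per the submitters' processing notes. The deposited values are raw counts of reads per gene. The counting program, its use of strand and the annotation are not given in the sources used here, so overlapping genes and near copies are uncertain. Symbols and positions came from GENCODE M21 (54409 of 54446 identifiers matched).

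Counts were analysed in edgeR 4.0.16 (R 4.3.3) with TMM scaling, filterByExpr and a robust quasi-likelihood fit of all 12 tumours with 1 mean per group. The contrast was SN-38 minus anti-PD1, with Benjamini-Hochberg adjustment over 16833 genes. Log2 differences are from that fit, CPM values use TMM-scaled library sizes, and list means use log2 CPM with a prior count of 2. Lists are described by counts and medians without a test. Groups do not overlap where each tumour of one lies beyond each of the other. Alternatives were RLE and upper-quartile scaling, DESeq2 1.42.0, limma voom 3.58.1, other count filters, a fit of the 6 tumours alone, a replicate block and leaving out tumours. No 2 tumours of a group agreed within sampling noise (chi-square per degree of freedom at least 11.8).

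In a test on simulated data of 16630 genes for this comparison, 14.9% of 67 genes changed 1.5-fold, 47% of 66 changed 2-fold and 80.3% of 66 changed 4-fold were recovered.

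Named genes were the 8 with the smallest p in each direction (mean log2 CPM at least 1, no overlap), since no gene passed, the 3 members of each list with the smallest p in the direction of its median, and 19 chosen by name (Cblb, Cd8a, Cd274, Cdkn1a, Cry2, Cxcl10, Cxcl9, Gzmb, H2-K1, Ifng, Klf13, Mki67, Mnt, Ncr1, Pdcd1, Per2, Pik3r1, Top1 and Tsc22d3). Other genes named were chosen after their values were seen. The members and lists were chosen with earlier results of these data known. Promoter sequences are from RefSeq (GRCm38.p6). The result for 1 gene of the type I interferon list is not reported here.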

Additional observations from a re-analysis of the deposited data

How the results depend on the processing

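The count of genes past an adjusted p of 0.05 was 0 under RLE and upper-quartile scaling, limma voom, both other filters, the fit of 6 tumours, the replicate block and each tumour left out, and 38 under DESeq2. Genes at an unadjusted p under 0.05 numbered 480 without anti-PD1 tumour 3 to 981 without anti-PD1 tumour 1, against 779. The replicate numbers did not pair the tumours (correlation of deviations 0.52, 0.27 and -0.33). Of SN-38 tumours 1 of 3, and of anti-PD1 tumours 2 of 3, matched their own number best. With the replicate block 0 genes passed, and the type I, interferon-gamma and E-box clock medians were -0.57, -0.99 and 0.52.

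Of 145 named genes, 121 kept their direction under each alternative. The causes of the changes below were not tested. Under limma voom Cdkn1a was -0.0543 and Mki67 -0.0438. With anti-PD1 tumour 3 and SN-38 tumour 1 both left out, an alternative added after seeing the data, Igkc was 0.0753, Clec9a 0.0688, S100a8 -1.33, Cdh3 -0.0167, Fanca 0.0337, Npas2 0.11, Gclc -0.0136, Cdkn1a -0.10 and Top1 0.0366. Leaving out 1 tumour gave the following lowest and highest log2 differences. Cell division and growth genes: Cdkn1a -0.21 to 0.31, Mki67 -0.13 to 0.30, Top1 -0.0528 to 0.0276, Cenpe -0.0669 to 0.40, Cdc25c -0.10 to 0.42, Cdc20 -0.19 to 0.34, Pole -0.0285 to 0.44, Ccne2 -0.19 to 0.26, Rrm1 -0.12 to 0.32, Aen -0.0327 to 0.31 and Fanca -0.36 to 0.0034. Other genes: Arntl -0.17 to 0.0454, Clec4d -0.31 to 3.72, S100a8 -1.35 to 3.45, Cxcl2 -0.18 to 3.09, Fn1 -0.10 to 0.82, Postn -0.0888 to 0.78, Krt13 -0.27 to 0.92 and Krt10 -0.58 to 3.53. Medians of the fibroblast, cell division, immune cell and muscle lists with tumours left out are given with those lists. Others included NF-kB (-0.30 without SN-38 tumour 1) and Nrf2 (-0.12 without SN-38 tumour 3). The Bmal1-phase median was -0.21 without anti-PD1 tumour 3 and -0.26 without SN-38 tumour 1. Its sign changed to 0.05 without anti-PD1 tumour 1 and 0.03 without SN-38 tumour 2, each with 3 of 5 genes higher. Fold changes of 1.5 were mostly missed at this number of tumours in simulated counts.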

Other observations

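Genes of RNA splicing were examined after the DESeq2 calls were seen. Of 17 tested SR proteins, Clk kinases and Luc7-like genes, 17 had a higher mean with SN-38, by a median of 0.25, and 9 (52.9%) were free of overlap, against 4.3% of all genes in that direction. Clk1, a kinase of SR proteins, was at 146, 143 and 138 CPM with SN-38 and 120, 102 and 105 CPM with anti-PD1 (0.39 ± 0.09). Clk4 was at 71.6, 73.4 and 83.4 CPM against 61.0, 51.3 and 56.1 CPM. Srsf11, an SR protein gene, was at 196, 221 and 221 CPM against 178, 155 and 169 CPM, and Luc7l3 at 103, 122 and 114 CPM against 92.2, 78.6 and 87.6 CPM. Vehicle tumours were at 103 to 117 CPM for Clk1 and 95.0 to 112 CPM for Luc7l3. Against vehicle, the list median was 0.11 for SN-38, with 7 of 17 lower. For anti-PD1 against vehicle it was -0.13, with 2 of 17 higher.

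Other genes picked after their values were seen lie outside the interferon lists. Tnfsf10 (TRAIL), a death ligand gene that interferon induces, was at 60.6, 46.3 and 40.5 CPM with SN-38 and 149, 62.4 and 147 CPM with anti-PD1. Dtx3l, a ubiquitin ligase gene, was at 244, 218 and 220 CPM against 413, 278 and 352 CPM. Scd1, a fatty acid desaturase gene, was at 5.67, 4.39 and 6.63 CPM against 13.3, 48.6 and 9.96 CPM, highest in anti-PD1 tumour 2. Summed adipocyte genes were 54.2 CPM in that tumour and 15.2 to 61.1 CPM in the SN-38 tumours, and their part in the Scd1 value was not tested.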
